A study of Mus musculus with 12 samples.

Results

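The genes described here were fibronectin (Fn1), 7 integrin subunits (Itga2, Itga3, Itga6, Itgav, Itgb1, Itgb4 and Itgb6) and the laminin subunit Lamb3, which make 9 of the 46517 genes in the count tables. They were chosen by symbol, and Fn1 was picked because its response to treatment differed between genotypes, so its values are given as a description without a test. RNA was sequenced from intestinal epithelial cells of the mouse colon in 12 samples. All mice were C57BL/6 and 7 to 9 weeks old, and they were wild type (WT) or Nfkb2-/- (knockout, KO), the latter lacking a precursor subunit of the transcription factor NF-kB. Mice of each genotype were untreated or were treated for 48 h with DSS (dextran sulfate sodium), which damages the colonic lining when given to mice. This made 4 groups of 3 biological replicates: WT untreated, WT DSS, KO untreated and KO DSS. The sources used here give neither the DSS dose nor whether a sample was 1 mouse or a pool. The cells were an EDTA-released fraction and not a sorted population. Per the labels, EpCAM-positive cells without CD45.2 typically made up about 90% of such a fraction.

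Integrins are receptors made of 1 alpha and 1 beta chain that tie a cell to the matrix under it. In intestinal epithelium, the alpha6beta4 pair binds laminin in hemidesmosome-like contacts, alpha3 and alpha2 pair with beta1 to bind laminin and collagen, and alphav pairs with beta6 into a receptor that binds fibronectin and activates latent TGF-beta. Laminin 332, which contains the chains encoded by Lama3 and Lamb3, is a basement membrane ligand that epithelial cells make themselves, whereas fibronectin in tissue comes largely from stromal cells and plasma.

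Each library held between 5595909 and 8117740 counts. Levels are given as CPM (each gene's count relative to its library total), scaled between libraries by the TMM method. The targeted gene Nfkb2 had 211 to 346 counts in the 6 WT libraries and 87 to 143 in the 6 KO libraries, without overlap, and its mean log2 CPM in KO minus that in WT was -1.31 (exact two-sided permutation p = 0.00216, the smallest that 924 rearrangements can give). All 10 epithelial markers were detected in every group, with a summed level of 25141 to 37985 CPM. Summed markers of smooth muscle (6 genes) lay between 6.71 and 16.0 CPM, of endothelium (6 genes) between 0.155 and 7.90, of neutrophils (5 genes) between 1.22 and 5.13, of T cells (7 genes) between 2.63 and 40.0, of B and plasma cells (5 genes) between 1.66 and 15.5 and of enteric glia (4 genes) between 0 and 1.93. The library numbers in the labels run through all WT samples before all KO samples, so genotype cannot be told apart from library order.

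Fn1 RNA was high in untreated WT cells and low in the 9 other libraries. The gene (ENSMUSG00000026193.14) lies at chr1:71585520-71653200 on the minus strand of GRCm38 in GENCODE M21. The 3 untreated WT libraries had 56.6, 53.6 and 61.0 CPM. WT cells under DSS had 7.29, 5.33 and 2.77 CPM, untreated KO cells had 16.4, 3.30 and 8.44, and KO cells under DSS had 8.49, 15.3 and 7.90. The lowest untreated WT library lay above every other library, and the 2 KO groups overlapped each other. In counts, the range was 327 to 395 in untreated WT and 17 to 122 elsewhere, so all libraries were above the floor of 3 counts.

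The mean of Fn1 in WT under DSS was 0.0899 times that of untreated WT, a log2 fold change of -3.46 (SE 0.47). Under the same treatment in KO cells the ratio of means was 1.12 and the log2 fold change 0.18 (SE 0.45). Untreated KO cells had 0.164 times the untreated WT level, a log2 fold change of -2.61 (SE 0.44). Under DSS the order of the genotypes was the opposite, with the KO mean 2.06 times the WT mean. The log2 fold change was 1.03 (SE 0.47), and the nearest libraries had 7.29 CPM in WT and 7.90 in KO. The DSS change in KO minus that in WT, the interaction, was 3.64 (SE 0.64), and this is the value the gene was picked on. The other Fn1 changes rest on the same groups. Their SEs are not corrected for this choice and support no test. Without KO untreated replicate 1, the highest of its group, the DSS change in KO became 0.84, the untreated difference between KO and WT became -3.27 and the interaction 4.31. The DSS change in KO turned to -0.23 without KO untreated replicate 2 and to -0.20 without KO DSS replicate 2, so its sign was not settled. These comparisons share samples and are not independent of one another. In bulk RNA, fewer cells of a type and less RNA per cell cannot be told apart.

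Fibroblasts and macrophages also make fibronectin, so their markers were read in the same libraries. Of 10 fibroblast markers, Lum, Pdgfra and Mfap5 were at 0 in all 12 libraries, and Col1a1 and Col3a1, which encode the main fibrillar collagens, had at most 5 and 6 counts. Col1a2 reached 12 counts, Dcn 14, and Pdgfrb, also a pericyte gene, had 17 to 94 counts and was detected in all 12 libraries. The summed fibroblast level was 2.78 to 14.0 CPM in untreated WT and 8.53 to 15.3 in WT DSS. In KO it was 6.59 to 10.2 untreated and 7.12 to 16.4 under DSS, so the sums overlapped. In WT DSS, 8 of the 10 markers were at 0 in all libraries, against 4 in each other group. Pdgfrb, with 62 to 94 counts, and Thy1, with at most 2, made up the WT DSS sum. Pdgfrb had 17 to 83 counts in untreated WT, 33 to 55 in KO untreated and 32 to 77 in KO DSS. No other of the 10 markers exceeded 14 counts in any library, so the overlap of the sums mainly reflects Pdgfrb. Dcn and Col3a1 had at most 11 and 6 counts in untreated WT and 0 in WT DSS. They had at most 12 and 4 in KO untreated and 14 and 4 in KO DSS. The 9 macrophage and monocyte markers, of which Cd14 was the most abundant, summed to 70.8 to 90.4 CPM in untreated WT, 194 to 210 in WT DSS, 126 to 141 in KO untreated and 198 to 213 in KO DSS, and Adgre1 was at 0 in untreated WT. The 4 pan-leukocyte markers summed to 10.5 to 24.0, 30.7 to 33.6, 53.7 to 72.2 and 78.9 to 106 CPM in the same order. The untreated WT libraries had the highest Fn1 and the lowest macrophage and leukocyte sums. The part of fibroblasts, macrophages and other leukocytes in the Fn1 level was not tested. The macrophage sum mainly reflects Cd14, which had 422 to 1411 counts, against at most 218 for any other of these markers. Cd14 had 422 to 542 counts in untreated WT, 1020 to 1411 in WT DSS, 817 to 979 in KO untreated and 769 to 964 in KO DSS. Lyz2 had 4 to 14, 36 to 66, 37 to 60 and 127 to 218 counts in the same order. Mrc1 ran otherwise, with 17 to 41 counts in untreated WT and 11 to 17 in KO DSS.

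**Figure D1:**
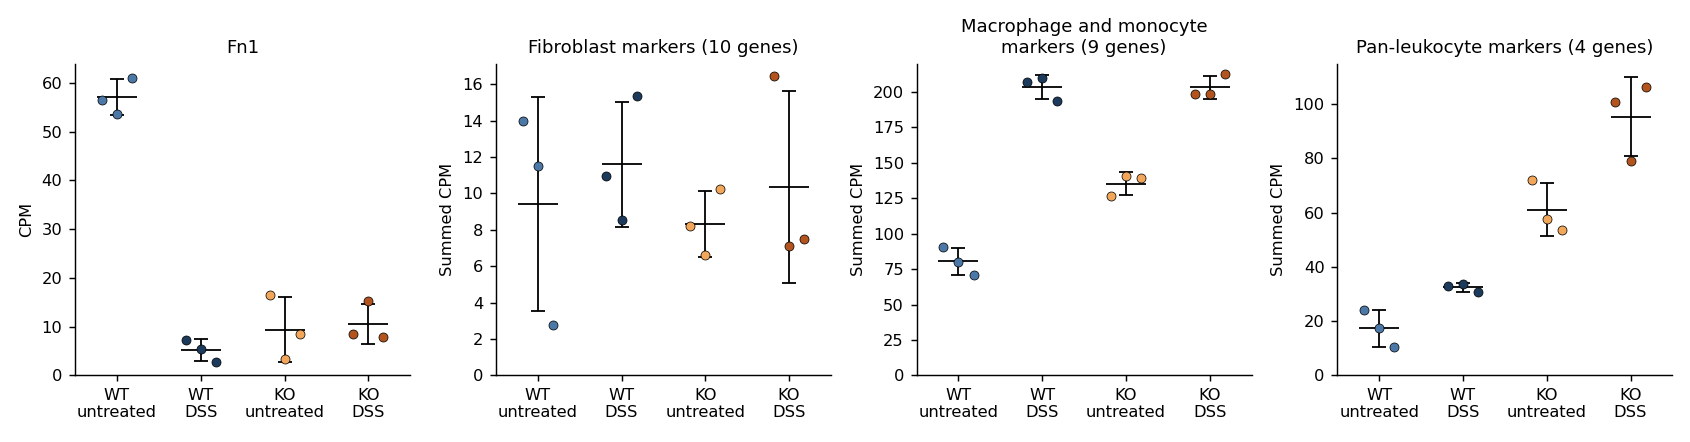
Fn1 (CPM) and the summed CPM of fibroblast, macrophage and monocyte, and pan-leukocyte markers in the 12 libraries. Each point is 1 library, the horizontal bar is the mean of 3 and the whiskers are 1 SD. Fn1 was 53.6 to 61.0 CPM in untreated WT and at most 16.4 elsewhere. The fibroblast sums, made up mainly of Pdgfrb, overlapped between all groups, and the other sums were lowest in untreated WT.

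Lamb3 encodes the beta chain of laminin 332 and was among the most abundant of the 9 genes (ENSMUSG00000026639.17, chr1:193207699-193343878, plus strand, GRCm38). It had 246, 204 and 178 CPM in untreated WT and 177, 153 and 154 in WT under DSS. Untreated KO cells had 209, 195 and 199 CPM, and KO cells under DSS had 146, 174 and 167. In both genotypes every treated library lay below every untreated one, in WT by less than 1 CPM between the nearest libraries. The log2 fold change under DSS was -0.38 (SE 0.12) in WT and -0.31 (SE 0.12) in KO. Neither passed the threshold of an adjusted p under 0.05 in edgeR's quasi-likelihood test with Benjamini-Hochberg adjustment over all 12522 genes tested (adjusted p = 0.10 in WT and 0.225 in KO), which is the test behind every adjusted p below. Without WT untreated replicate 3, the lowest of its group, the WT value became -0.48 and passed (edgeR adjusted p = 0.0208). The genotypes differed by -0.06 (95% interval -0.32 to 0.20) without treatment and by 0.01 (-0.26 to 0.27) under DSS on the log2 scale.

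Lama3, which encodes the alpha chain that assembles with the Lamb3 product, was far less abundant per length, at 0.366 to 1.53 RPKM (CPM per kilobase of exon) against 22.1 to 37.2 for Lamb3. In CPM it had 3.94, 10.2 and 5.87 CPM in untreated WT, 6.38, 6.40 and 6.52 in WT DSS, 9.96, 11.8 and 8.44 in KO untreated and 16.4, 14.4 and 5.96 in KO DSS. Treated and untreated libraries overlapped in both genotypes. Its log2 fold changes under DSS were -0.04 (SE 0.40) in WT and 0.28 (SE 0.38) in KO. For KO against WT they were 0.60 (SE 0.39) without treatment and 0.92 (SE 0.39) under DSS. The genotypes overlapped in both, and neither difference passed (edgeR adjusted p = 0.528 and 0.281).

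Itga6 encodes the laminin-binding alpha chain that pairs with Itgb4 in hemidesmosomes, and it was lower in KO than in WT cells without treatment (ENSMUSG00000027111.14, chr2:71745616-71858416, plus strand, GRCm38). The untreated WT libraries had 149, 170 and 174 CPM and the untreated KO libraries had 109, 98.9 and 101. Under DSS the values were 126, 127 and 125 CPM in WT and 110, 129 and 80.5 in KO. Untreated WT lay above all 9 other libraries, and the DSS-treated genotypes overlapped. Itga6 fell by 0.67 on the log2 scale (SE 0.14, 95% interval of the change -0.98 to -0.37) in untreated KO against untreated WT, with an edgeR adjusted p of 0.0175. This call was lost without KO untreated replicate 2 (-0.65, edgeR adjusted p = 0.0769), KO untreated replicate 3 (-0.66, 0.0811) or WT untreated replicate 2 (-0.65, 0.0624), with the size of the difference nearly the same. The DSS change was -0.39 (SE 0.14) in WT and 0.05 (SE 0.14) in KO and passed in neither (edgeR adjusted p = 0.152 and 0.92). The difference between these changes was 0.44 (95% interval 0.00 to 0.87, edgeR adjusted p = 0.471).

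Itgb4, the hemidesmosomal beta chain, varied least of the 9 genes, with a coefficient of variation of at most 13.1% within any group. It had 228, 241 and 186 CPM in untreated WT, 249, 215 and 261 in WT DSS, 203, 188 and 192 in KO untreated and 187, 208 and 183 in KO DSS. Both KO groups were below all WT libraries under DSS, and untreated WT overlapped every other group. The difference between genotypes under DSS was -0.33 (SE 0.12) and did not pass (edgeR adjusted p = 0.175). Per length, in CPM divided by the joined exon length in kilobases (RPKM), the ratio of Itga6 to Itgb4 was 0.508, 0.549 and 0.728 in untreated WT. It was 0.371 to 0.459 in WT DSS, 0.408 to 0.417 in KO untreated and 0.343 to 0.482 in KO DSS, so each untreated WT library was above all others. The ratio rests on the same Itga6 counts as the levels above and is given without a test.

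**Figure D2:**
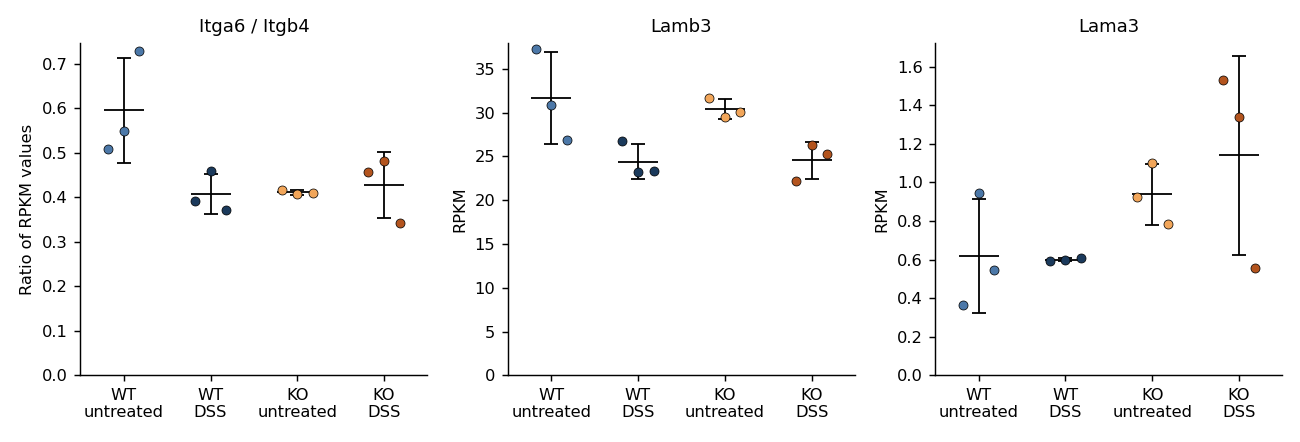
The ratio of Itga6 to Itgb4 (RPKM over RPKM) and the RPKM of the laminin 332 chains Lamb3 and Lama3 in the 12 libraries, with the mean of 3 (bar) and 1 SD (whiskers). The Itga6 to Itgb4 ratio was 0.508 to 0.728 in untreated WT and at most 0.482 elsewhere, and within each genotype Lamb3 was lower in the treated libraries while Lama3 overlapped.

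The alpha chains that pair with beta1 showed small differences. Itga3, a laminin receptor chain, had 160, 158 and 153 CPM in untreated WT and 158, 189 and 207 in WT DSS. In KO cells it had 153, 128 and 143 CPM without treatment and 162, 208 and 156 with it. Treated KO libraries were all above untreated ones, whereas the WT groups overlapped. The log2 fold change under DSS was 0.31 (SE 0.13) in KO and 0.23 (SE 0.13) in WT, and neither passed (edgeR adjusted p = 0.256 and 0.405).

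Itga2 encodes a collagen receptor chain and had 35.0, 30.8 and 34.9 CPM in untreated WT. The other groups had 21.7 to 31.1 CPM in WT DSS, 25.2 to 30.5 in KO untreated and 20.9 to 31.3 in KO DSS. Untreated KO lay below untreated WT in all libraries, by -0.31 on the log2 scale (SE 0.19, edgeR adjusted p = 0.501). Itga5, whose product pairs with beta1 as the main fibronectin receptor, had 36.1, 40.0 and 33.5 CPM in untreated WT, where Fn1 was highest, and 40.4, 30.7 and 42.1 in WT DSS, where Fn1 was lowest. Its log2 fold change there was 0.04 (SE 0.21). In KO cells Itga5 had 29.2, 29.4 and 36.0 CPM without treatment and 23.7, 28.5 and 15.9 with it, a change of -0.48 (SE 0.21, edgeR adjusted p = 0.284). Under DSS the KO libraries were all below the WT libraries, with a difference of -0.73 (SE 0.21) that DESeq2 called and edgeR did not (edgeR adjusted p = 0.0865).

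Itgb1, the common beta chain, was the most variable of the abundant members. Its libraries had 141, 272 and 229 CPM in untreated WT, 161, 235 and 205 in WT DSS, 291, 107 and 260 in KO untreated and 254, 209 and 250 in KO DSS. Every group overlapped every other. The 95% intervals of the 4 pairwise log2 fold changes ran from -0.73 at the lowest to 0.88 at the highest, and each held both signs. Changes inside the interval of a comparison were therefore not excluded by it. KO untreated replicate 2 was the lowest and replicate 1 the highest of its group for Itgb1, Itgav and Fn1 alike.

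Itgb6 encodes the beta chain found in epithelium that pairs only with alphav, and it fell under DSS in WT cells (ENSMUSG00000026971.14, chr2:60598292-60722643, minus strand, GRCm38). RefSeq's promoter table (GRCm38.p6) had an entry for 6 of the 9 genes, namely Lamb3, Itgb6, Itgav, Itgb1, Itga3 and Itga2. The Itgb6 sequence is shown because Itgb6 was the member called under DSS, and it covers the 210 bases before the gene start at chr2:60722644-60722853, minus strand, written 5′ to 3′ in lower case with no capitals because neither motif searched was found.

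Itgb6 upstream sequence: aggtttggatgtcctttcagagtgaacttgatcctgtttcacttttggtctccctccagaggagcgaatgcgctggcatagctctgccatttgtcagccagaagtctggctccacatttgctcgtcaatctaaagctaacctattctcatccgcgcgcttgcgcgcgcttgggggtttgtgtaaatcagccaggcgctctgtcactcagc

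The searched motifs were kappaB, the binding motif of NF-kB, and AP-1 (TGANTCA), on both strands in the 250 bases before each RefSeq start. A kappaB match was present in 7.25% and an AP-1 match in 6.75% of 32851 such windows. Among the 6 genes, the window of 1 of the Lamb3 starts held 1 kappaB match and no window held an AP-1 match. These are descriptions of the letters and say nothing of binding.

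The Itgb6 level was 101, 74.2 and 57.6 CPM in untreated WT and 42.4, 26.4 and 45.5 in WT DSS. In KO cells it was 72.2, 62.7 and 60.1 CPM without treatment and 58.7, 47.7 and 46.4 with it. Treated libraries were below untreated ones in both genotypes, in KO narrowly, with 58.7 and 60.1 CPM in the nearest libraries. Under DSS the KO libraries were above the WT libraries, with 46.4 and 45.5 CPM in the nearest ones. That difference was 0.42 on the log2 scale (SE 0.22) and did not pass (edgeR adjusted p = 0.421). In WT, Itgb6 fell by 1.03 on the log2 scale (SE 0.22, 95% interval of the change -1.50 to -0.55, edgeR adjusted p = 0.0114), and the mean under DSS was 0.492 times the untreated mean. This call was narrowly lost without WT untreated replicate 1 (-0.80, edgeR adjusted p = 0.0501), without WT DSS replicate 2 (-0.82, 0.0524) or with only the WT groups in the fit (-1.03, 0.0508). In KO the log2 fold change was -0.35 (SE 0.22, 95% interval -0.82 to 0.12, edgeR adjusted p = 0.485). The difference between genotypes in the DSS change was 0.67 (95% interval 0.01 to 1.34) and did not pass (edgeR adjusted p = 0.462), so a difference in response was not shown.

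Itgav, the partner of Itgb6 and of several other beta chains, was the least abundant of the 7 integrin members and varied most among them. It had 14.1, 23.1 and 26.4 CPM in untreated WT, 21.9, 7.07 and 21.5 in WT DSS, 39.6, 6.10 and 17.8 in KO untreated and 32.0, 21.9 and 14.3 in KO DSS. All groups overlapped, and within untreated KO the coefficient of variation was 80.2%. Its DSS change had a 95% interval of -1.51 to 0.83 in WT and -1.05 to 1.25 in KO on the log2 scale. Itgav therefore allows no statement on whether it moved with Itgb6.

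**Figure D3:**
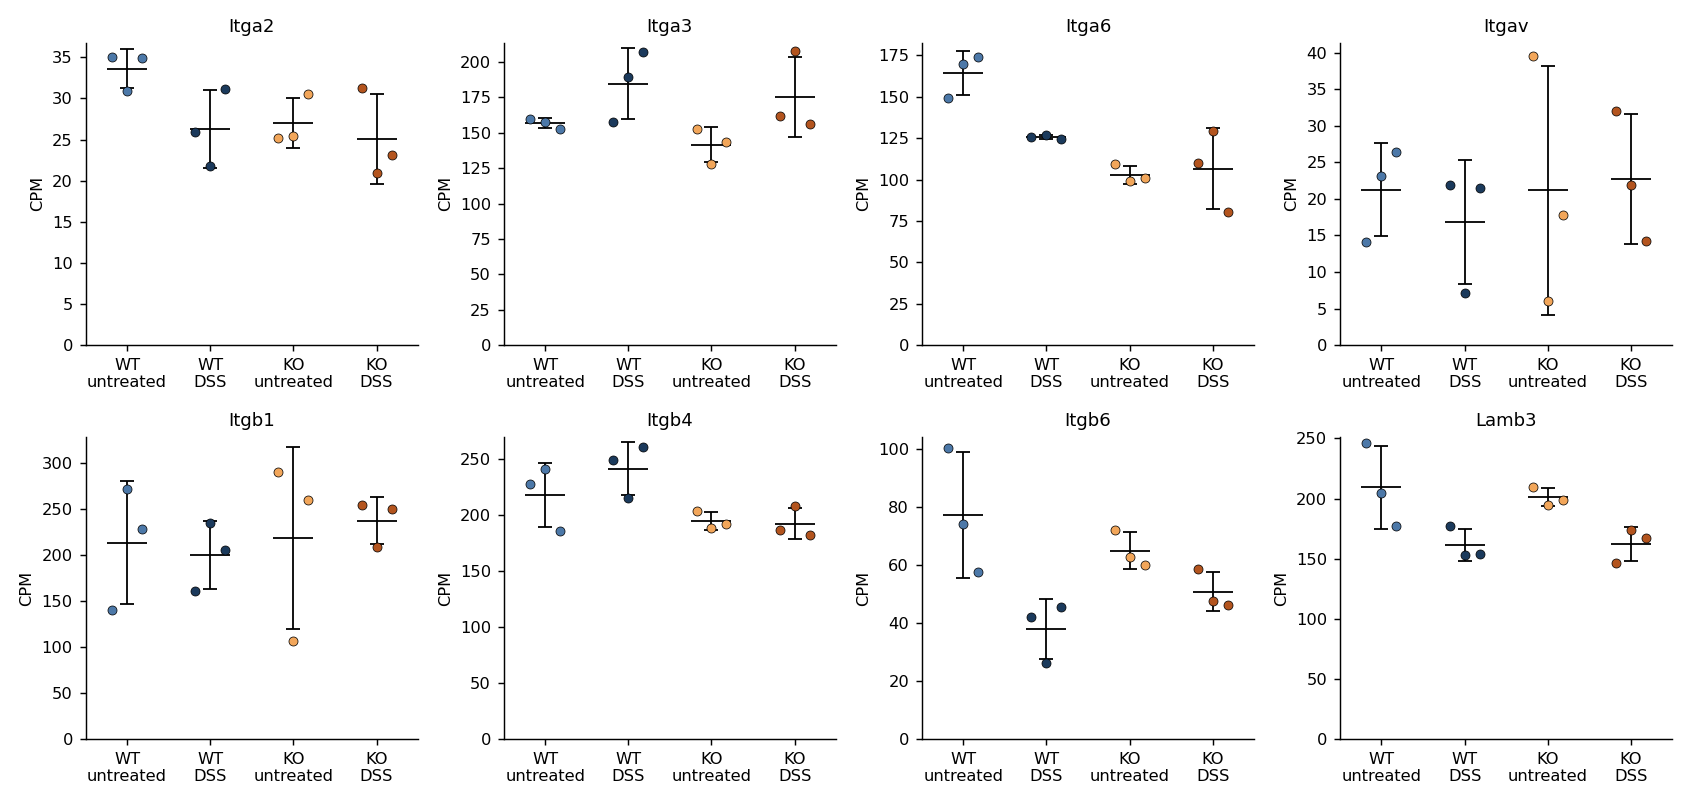
CPM of the 7 integrin subunits and Lamb3 in the 12 libraries, 1 panel per gene. Points are libraries, the bar is the mean of 3 and whiskers are 1 SD. Itga6 was highest in all untreated WT libraries, Itgb6 and Lamb3 were lower under DSS in both genotypes, and Itgav and Itgb1 spread widely within groups.

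All 9 genes passed the filter on low counts. Among the 8 other than Fn1, 1 of 8 was called under DSS in WT (Itgb6, lower), against 6.3% of all genes tested in either direction and 3.5% lower. In untreated KO against WT, 1 of 8 was called (Itga6, lower), against 3.48% of all genes in either direction and 1.76% lower. No member was called by edgeR for DSS in KO (3.92% of all genes called), for KO against WT under DSS (3.11%) or for the interaction (1.7%), and DESeq2 called 0 in each of these as well. With 8 genes, a count of 1 or 0 is near these background shares. In the last 3 comparisons, 2, 1 and 2 members had an unadjusted edgeR p under 0.05, in that order. So did 1987, 1829 and 1328 of all 12522 genes tested.

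Groups failed to overlap for 2 or 3 members in each pairwise comparison. There were 3 of 8 for DSS in WT (Itga6, Itgb6 and Lamb3, all lower, background 20.6% in either direction and 9.96% lower) and 3 of 8 for DSS in KO (Itgb6 and Lamb3 lower and Itga3 higher, 24.3%). For KO against WT there were 3 of 8 without treatment (Itga2, Itga3 and Itga6, all lower, with gaps under 1 CPM for Itga2 and Itga3, 19.3% and 9.52% lower) and 2 of 8 under DSS (Itgb4 lower and Itgb6 higher, with a gap under 1 CPM for Itgb6, 22.3%). The mean was highest in untreated WT for 4 of 8 members (Itga2, Itga6, Itgb6 and Lamb3), compared with 26% of all genes. The median log2 fold change of the 8 members was -0.35 for DSS in WT, 0.02 for DSS in KO, -0.16 for untreated KO against WT and -0.03 for KO against WT under DSS, where the medians of all genes were 0.01, 0.02, 0.00 and 0.00.

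**Figure D4:**
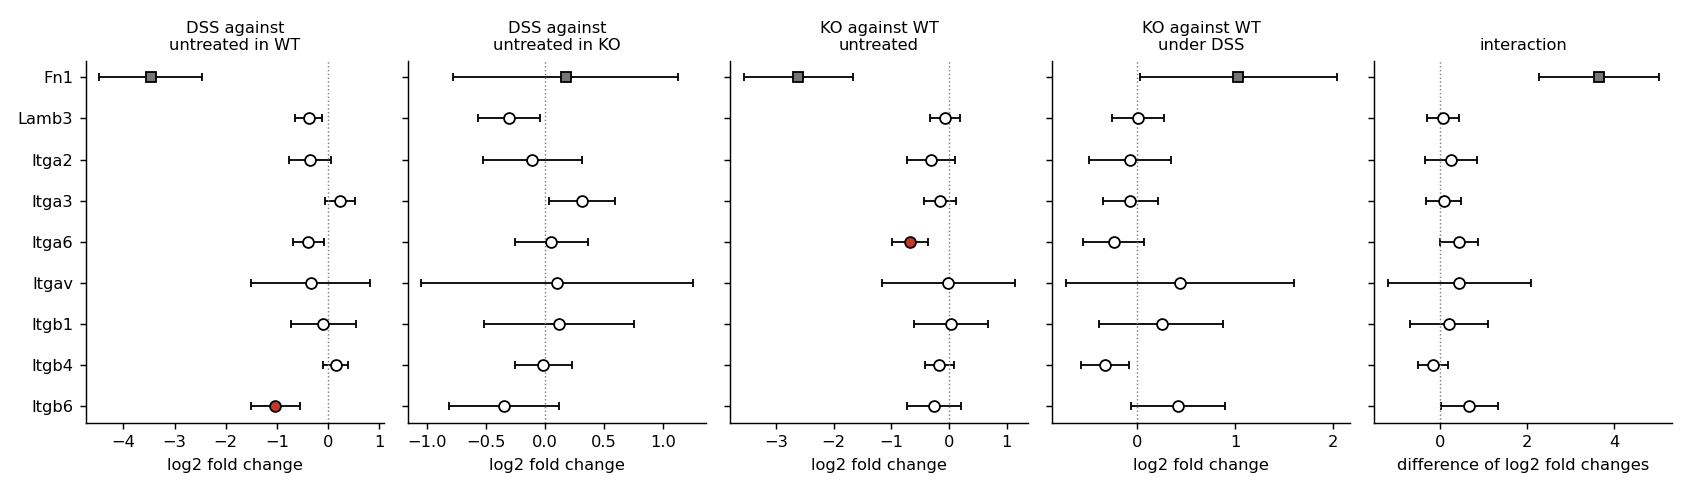
Log2 fold changes of the 9 genes in the 4 pairwise comparisons and the interaction, with 95% intervals from the edgeR fit. Squares mark Fn1, which was not tested, and filled circles mark members with an adjusted p under 0.05. The Fn1 intervals are not corrected for its having been picked on the interaction. The filled circles are Itgb6 for DSS in WT (-1.03) and Itga6 for untreated KO against WT (-0.67). The horizontal scales differ between panels.

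The levels of the genes were ordered per length, by the median RPKM over the 12 libraries. Itgb1 led with 56.8 RPKM, followed by Itgb4 (29.3), Itga3 (27.6) and Lamb3 (26.8), then by Itga6 (13.9), Itgb6 (8.18), Itga2 (3.96), Itgav (2.02) and Fn1 (0.724). Itgb1 was above Itgb4 in 11 of 12 libraries, while Itgb4 exceeded Itga3 in 7 of 12 and Itga3 exceeded Lamb3 in 6 of 12, so these 3 were not separated. The steps from Lamb3 to Itga6, from Itga6 to Itgb6 and from Itgb6 to Itga2 each held in 12 of 12 libraries. In untreated WT, Fn1 reached 4.59 to 5.22 RPKM, which overlapped Itga2 (4.32 to 4.90) and lay above Itgav (1.32 to 2.46).

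The remaining integrin subunits were mostly rare in these cells. Of 20 listed, 13 were tested. edgeR called 1 higher under DSS in WT (Itgb2), where it called 6.3% of all genes in either direction. In untreated KO against WT it called 2 higher (Itgb2 and Itgae), against 3.48% of all genes. It called 0 for DSS in KO (3.92%), for KO against WT with DSS (3.11%) and for the interaction (1.7%). In those comparisons 2, 4 and 0 had an unadjusted p under 0.05, in that order, against 1987, 1829 and 1328 of all 12522 genes. DESeq2 called 0, 3 (Itga5, Itgae and Itgb2) and 0 there. Itgb2 is the beta chain of leukocyte integrins, and Itgae the alpha chain of an integrin of intraepithelial T cells. Itgb2 had 0.583, 1.97 and 0.155 CPM in untreated WT, which is 1 to 12 counts, and 5.32, 4.53 and 2.45 in WT DSS. It had 6.60, 6.35 and 9.98 CPM in KO untreated and 11.1, 12.9 and 15.1 in KO DSS. Itgb2 rose under DSS in WT (2.19, SE 0.57, edgeR adjusted p = 0.0325) and was higher in untreated KO than WT (3.09, SE 0.56, edgeR adjusted p = 0.00587). The DSS call was lost without WT untreated replicate 1 or 3 or WT DSS replicate 1 or 2 (edgeR adjusted p from 0.0711 to 0.121), with a replicate block (0.0585) and with only the compared groups in the fit (0.164). With only the compared groups in the fit, the untreated KO call was lost too (0.0616).

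Itgae was higher in untreated KO than in untreated WT (1.66, SE 0.43, edgeR adjusted p = 0.0487), with 11.2 to 12.8 against 1.55 to 6.56 CPM. That call was lost without any 1 of the untreated KO libraries or without WT untreated replicate 2 or 3 (edgeR adjusted p from 0.0815 to 0.167), and with only the compared groups in the fit (0.136). Fermt3, the leukocyte kindlin that activates integrins, was the 1 adaptor higher in untreated KO (1.65, SE 0.40, edgeR adjusted p = 0.0367). Its levels were 3.68 to 7.54 CPM in KO and 1.24 to 2.30 in WT, and the call was lost without KO untreated replicate 1 or 2 or any 1 of the untreated WT libraries (edgeR adjusted p from 0.0666 to 0.154), and with only the compared groups (0.132). The pan-leukocyte sum given above was likewise higher in untreated KO than in untreated WT, with 53.7 to 72.2 against 10.5 to 24.0 CPM. So was the T cell sum, with 13.7 to 21.4 against 2.63 to 7.87 CPM. The neutrophil sum was lower in untreated KO (1.22 to 1.35 against 2.19 to 3.12 CPM), and the B and plasma cell sums overlapped (1.66 to 5.12 and 3.09 to 10.1 CPM). The part of leukocytes in these differences was not tested.

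Of 16 other matrix ligands and integrin counter-receptors, 6 were tested. For DSS in WT, edgeR called 2 higher (6.3% of all genes called in either direction), and for DSS in KO 0 (3.92%). In untreated KO against WT it called 2 higher and 1 lower (3.48%). It called 1 lower in KO against WT under DSS (3.11%) and 2 lower for the interaction (1.7%). The list was written with earlier results of these data known, so these counts cannot be read as an excess over those shares. Ccn1, a matricellular ligand of integrins that is induced early by stress, had 29.9, 40.2 and 41.9 CPM in untreated WT and 107, 97.3 and 104 in WT DSS. In KO cells it had 67.9, 56.6 and 64.0 CPM without treatment and 50.9, 49.5 and 61.2 with it. WT DSS was above all other libraries and untreated WT below all others. Ccn1 rose under DSS in WT (1.46, SE 0.15, edgeR adjusted p = 2.33e-05), and its change in KO was -0.22 (SE 0.15, edgeR adjusted p = 0.542). The difference between the changes was -1.68 (SE 0.21, edgeR adjusted p = 0.000537), opposite in sign to that of Fn1. Untreated KO was higher than WT (0.75, SE 0.15, edgeR adjusted p = 0.0124), a call lost without KO untreated replicate 1 (0.0613) or 3 (0.0539) and with only the compared groups (0.0796). Under DSS, KO was lower than WT (-0.93, SE 0.15, edgeR adjusted p = 0.00323).

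Icam1, the endothelial and epithelial ligand of leukocyte integrins and a well-known NF-kB target, had 0.874, 2.46 and 2.32 CPM in untreated WT and 17.2, 10.8 and 15.7 in WT DSS. It had 11.98, 11.7 and 12.1 CPM in untreated KO and 19.3, 21.8 and 27.2 in KO DSS. Icam1 rose under DSS in WT (2.95, SE 0.34, edgeR adjusted p = 5.78e-05), and untreated KO was above untreated WT (2.66, SE 0.34, edgeR adjusted p = 0.000348). The DSS change in KO was 0.93 (SE 0.28), which DESeq2 called and edgeR did not (edgeR adjusted p = 0.0887). The interaction was -2.02 (SE 0.44, edgeR adjusted p = 0.0273). The interaction call was lost on leaving out any 1 of KO untreated replicates 1 to 3, KO DSS replicates 1 and 2, WT untreated replicate 1 and WT DSS replicates 1 and 3 (edgeR adjusted p from 0.0504 to 0.0891), and with a replicate block (0.0507). Icam1 and the pan-leukocyte sum were both lowest in untreated WT and highest in KO DSS. In the middle groups they ran in opposite order, with mean Icam1 14.5 CPM in WT DSS and 11.9 in KO untreated against leukocyte sums of 30.7 to 33.6 and 53.7 to 72.2. The part of leukocytes in the Icam1 level was not tested.

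Fbln1, a basement membrane protein that binds fibronectin, had 12.1, 15.3 and 25.0 CPM in untreated WT and 14.9, 12.001 and 15.5 in WT DSS. It had 3.63, 5.13 and 2.85 CPM in untreated KO and 4.07, 0.890 and 7.07 in KO DSS, so all KO libraries were below all WT libraries. It fell by 2.17 on the log2 scale in untreated KO against WT (SE 0.49, edgeR adjusted p = 0.0242). The difference under DSS was -1.80 (SE 0.49), which DESeq2 called and edgeR did not (edgeR adjusted p = 0.0688). The edgeR call without treatment was lost without KO untreated replicate 1 (0.0926), KO untreated replicate 3 (0.117) or WT untreated replicate 3 (0.0566). The DSS change of Fbln1 in WT was -0.31 (SE 0.45), where that of Fn1 was -3.46.

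**Figure D5:**
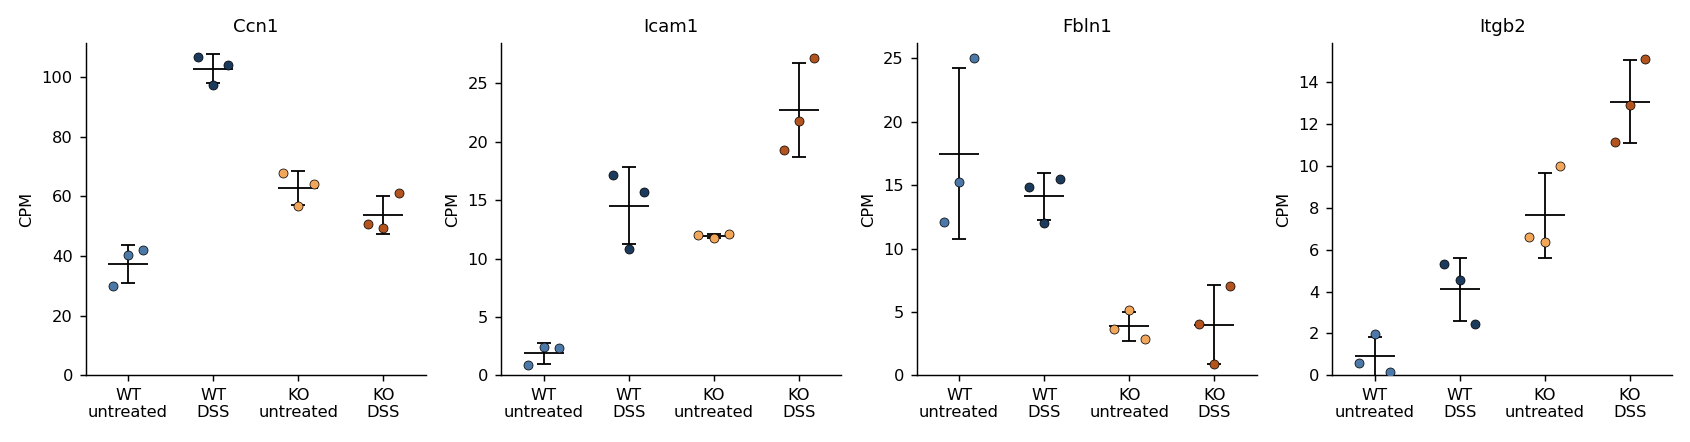
CPM of Ccn1, Icam1, Fbln1 and Itgb2 in the 12 libraries, with the mean of 3 (bar) and 1 SD (whiskers). Ccn1 was 97.3 to 107 CPM in WT DSS and at most 67.9 elsewhere, Icam1 and Itgb2 were lowest in untreated WT, and Fbln1 was at most 7.07 CPM in KO and at least 12.001 in WT.

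None of the 9 tested basement membrane and hemidesmosome genes of 17 listed was called by edgeR or DESeq2, and between 0 and 2 had an unadjusted p under 0.05 in each comparison. Of all 12522 genes tested, between 1328 and 2204 did so. Of 24 integrin adaptors and focal adhesion genes, 21 were tested, and edgeR called Tns4, Actn4 and Fermt3. It called 1 of 21 for DSS in WT (6.3% of all genes called in either direction) and 1 for DSS in KO (3.92%). There was also 1 for untreated KO against WT (3.48%), 1 for KO against WT under DSS (3.11%) and 0 for the interaction (1.7%). DESeq2 called Tns4 also for DSS in KO and Vcl, the adaptor vinculin, for KO against WT under DSS, which edgeR did not. Tns4, an epithelial tensin that binds beta1 tails, fell by 0.34 on the log2 scale under DSS in WT (SE 0.09, edgeR adjusted p = 0.043), from 274 to 292 CPM down to 215 to 231. The KO value was nearly the same at -0.35 (SE 0.09, edgeR adjusted p = 0.0535). The WT call was lost without WT untreated replicate 2 or 3 or any 1 of the WT DSS libraries (edgeR adjusted p from 0.0631 to 0.169). It was also lost with the replicate block (0.0723), with no filter (0.138) and with only the compared groups in the fit (0.126). Actn4, an actin crosslinker, fell by 0.49 under DSS in KO (SE 0.09, edgeR adjusted p = 0.00845), from 1157 to 1207 CPM down to 790 to 875. It was also lower in KO than WT under DSS (-0.42, SE 0.09, edgeR adjusted p = 0.0237), a call lost without any 1 of the KO DSS libraries or WT DSS replicate 1 or 3 (edgeR adjusted p from 0.0545 to 0.112). The median log2 fold change of the 21 adaptors was 0.00 for DSS in WT, -0.01 for DSS in KO, -0.01 for untreated KO against WT and -0.02 for KO against WT under DSS.

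The genes whose log2 CPM ran most like that of Fn1 over the 12 libraries, among 8861 genes averaging a log2 CPM of 3 or more, were Trim36 (Pearson r = 0.905), Pak2 (0.891), Sp3 (0.887), Acsf2 (0.88) and Neurl1b (0.879). Each had its highest mean in untreated WT, but with far smaller changes: Trim36 averaged 81.5 CPM in untreated WT and 45.5 to 52.2 in the other groups, and Neurl1b 32.6 against 13.7 to 20.3. For Lamb3 the closest were Nipa2 (0.966), Thop1 (0.938), Idh3a (0.924), Rab2a (0.916) and Prelid3b (0.913). Each of these had a lower mean under DSS in both genotypes, as Lamb3 did. These correlations describe 12 libraries in 4 groups and share library composition and group differences, so they carry no test.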

How the data were processed

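Whole-number counts of reads per gene were deposited for each of the 12 samples with no sign of normalization by the authors. Reads were processed with STAR 2.5.2b and featureCounts 1.5.0 on GRCm38/mm10, per the submitters' processing notes, and the annotation is not given in the sources used here. Libraries were made from 2 ng of total RNA by SMART-seq2 and Nextera XT, per the labels' protocols, a method that keeps no strand and adds no molecular identifiers, so the floor of 3 counts covers counting error only. The intervals of fold changes come from the fit and include the spread between replicates. ERCC spike-ins were added per the labels and no ERCC values were used here. Symbols, coordinates and exon-union lengths came from GENCODE M21 (GRCm38), matched without the ID version for 46005 of 46517 IDs.

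In R 4.3.3, edgeR 4.0.16 kept 12522 genes (filterByExpr, 99.8% of counts) and scaled libraries by TMM (factors 0.888 to 1.04). Counts over these genes set the library sizes. One coefficient per group was fitted over all 12 samples (common biological coefficient of variation 0.227), and contrasts were tested by the two-sided quasi-likelihood F test with Benjamini-Hochberg adjustment over all genes tested. Calls needed an adjusted p under 0.05. The code was tested on simulated data. RPKM is CPM divided by exon-union length in kilobases, and log2 CPM used a prior count of 2. Alternatives were DESeq2 1.42.0, DESeq2 size factors, no filter, a filter of 10 counts in 3 samples and a mean of 20, a replicate block, fits of only the groups compared, and leaving out each replicate.

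The members and lists were chosen with earlier results of these data known. Named beside the members were up to 3 called genes per list and comparison with the largest change, and the 5 genes closest to Fn1 and to Lamb3. Lama3, Itga5 and the other listed genes named by their unadjusted p or by DESeq2 fall outside this rule and were chosen after their values were seen. Calls over the list of other laminin subunits are not reported here. Replicate pairs differed beyond sampling noise (chi-square per degree of freedom 6.51 to 27.0), so each sample counted once. Any pairing rests on the replicate numbers 1 to 3 in the titles, and within a genotype same-numbered samples also have adjacent library numbers in the labels. Same-numbered samples deviated together in KO (r = 0.204, 0.106 and 0.127 between untreated and DSS), but not in every WT pair (0.014, 0.12 and 0.128) and with a negative r in every pair across genotypes, so the block was applied as an alternative. Without strand, shared exons cannot be told apart for Fn1 with Apol7d (292 bases, Apol7d 0 to 2 counts), Itgav with Gm13684 (634 bases, 0 to 9 counts) and Itgb4 with B230344G16Rik (537 bases, 0 to 1 counts).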

Additional observations from a re-analysis of the deposited data

Results flagged for a closer look

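For 3 of the genes described, the difference between genotypes in the DSS change stood out. For Fn1 the DSS change in KO minus that in WT was 3.64 on the log2 scale (SE 0.64), and this gene was picked on that value, so no test is given. Ccn1 differed by -1.68 and Icam1 by -2.02 by the test of the difference itself (edgeR adjusted p = 0.000537 and 0.0273). The Icam1 call was lost in 8 of 12 fits that left out 1 library (edgeR adjusted p from 0.0504 to 0.0891) and with the replicate block (0.0507). Ccn1 and Icam1 come from a list written with earlier results of these data known.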

How the results depend on the processing

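Under all alternatives that left out no library, Itga6 stayed called in untreated KO against WT, and Itgb6 stayed called for DSS in WT except with only the compared groups in the fit, where the count of members called was 0. Leaving out 1 library gave 0 to 2 members for DSS in WT and 0 to 1 for untreated KO against WT, and 0 for the other comparisons. Over the 8 members other than Fn1, 479 of 520 recomputed values kept their direction and side of the threshold, 6 lost and 1 gained a call, and 34 values that were not called changed sign. The replicate block changed no member's call. Averaged over all other groups, those of the other genotype included, no sample of 12 correlated best with its own number (0 of 12). This does not check pairing within a genotype.

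Counts over all genes were 789, 491, 436, 390 and 213 for DSS in WT, DSS in KO, untreated KO against WT, KO against WT with DSS and the interaction. With the replicate block they were 695, 409, 345, 290 and 186. Only the compared groups gave 467, 599, 195 and 540 for the 4 pairwise comparisons. DESeq2 gave 1014, 779, 736, 637 and 354 and no filter 1017, 776, 703, 642 and 356. Leaving out 1 library gave 483 to 958, 235 to 302, 212 to 725, 160 to 231 and 152 to 350. Without WT untreated replicate 3 they were 958, 725 and 350 for DSS in WT, untreated KO against WT and the interaction.

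Sign changes without a library lost were those of Itgav in untreated KO against WT (0.005 with no filter, 0.008 with only the compared groups). For Fn1 the DSS change in KO ran from -0.231 to 0.841 on leaving out 1 library. Among the other 8 members the ranges that crossed zero were, for DSS in WT, Itgav -0.582 to 0.032 and Itgb1 -0.325 to 0.119. For DSS in KO they were Itga6 -0.124 to 0.213, Itgav -0.342 to 0.915, Itgb1 -0.216 to 0.371 and Itgb4 -0.083 to 0.019. For untreated KO against WT they were Itgav -0.822 to 0.434, Itgb1 -0.219 to 0.368 and Lamb3 -0.164 to 0.069. For KO against WT under DSS they were Itga2 -0.252 to 0.071, Itga3 -0.224 to 0.015 and Lamb3 -0.05 to 0.079. For the interaction they were Itga3 -0.073 to 0.163, Itgb1 -0.123 to 0.463 and Lamb3 -0.066 to 0.172. The cause was not tested. In untreated WT, Itgb2 rested on 1 to 12 counts per library.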
